A study of Mus musculus with 11 samples.

Results

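A set of 5 transcripts that mark B lymphocytes were followed in heart RNA: Cd79a, Cd79b, Ms4a1, Ighm and Igkc. They were taken by gene symbol from the 35584 genes of the deposited count table, and all 5 members were found there and in the deposited TPM table. The libraries came from whole hearts of male mice 8 to 12 weeks old, kept specific-pathogen-free. Macrophage-depleted hearts (n = 3) came from CD169-DTR mice, in which the diphtheria toxin receptor is expressed under control of CD169, a surface lectin of resident tissue macrophages encoded by Siglec1. These mice were given repeated injections of 0.01 µg of diphtheria toxin per g of body weight over 3 weeks, and their hearts are labelled as depleted for 21 days. Mertk-KO hearts (n = 2) are labelled as lacking Mertk, the receptor with which macrophages take up dying cells. LXR-DKO hearts (n = 3) are labelled as lacking the liver X receptors alpha and beta, which sense sterols and are encoded by Nr1h3 and Nr1h2. WT hearts (n = 3) came from wild-type mice given the same toxin injections. The labels do not say whether Mertk-KO and LXR-DKO mice received toxin, so genotype and toxin cannot be told apart in their comparisons with WT, nor can the CD169-DTR allele and the depletion. CD169 is also carried by macrophages of the spleen and lymph nodes, so toxin in these mice is not directed at the heart alone.

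B cells recognise antigen through the B cell receptor, a membrane-bound antibody held by a pair of signalling chains. The antibody part of a naive B cell is made of a heavy chain, whose mu constant region is encoded by Ighm, and a light chain, which in mice mostly uses the kappa constant region encoded by Igkc. Cd79a and Cd79b encode the signalling chains Ig-alpha and Ig-beta, whose cytoplasmic motifs are phosphorylated when antigen binds, and Ms4a1 encodes CD20, a membrane protein of mature B cells that plasma cells lose. Plasma cells transcribe the antibody genes at a far higher rate than resting B cells, so Ighm and Igkc can report on both. The mouse heart holds a resident and circulating B cell population, much of it inside blood vessels. In whole-tissue RNA, fewer B cells and less RNA per B cell cannot be told apart.

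The sequence around the RefSeq start of Cd79a is shown because it is the member for which the RefSeq promoter table had an entry. It runs from 250 bases before to 50 bases after the RefSeq start, on the plus strand at chr7:24897247-24897546 of GRCm38.p6. A match to the ETS-type motif AGGAAGT, chosen after the sequence was seen and found in 9.35% of 32841 mouse promoters of the same length on either strand, stands in capitals and starts 55 bases before the RefSeq start. The GENCODE start lies 116 bases upstream of the RefSeq one, so by GENCODE the match is 61 bases inside the gene.
Cd79a promoter: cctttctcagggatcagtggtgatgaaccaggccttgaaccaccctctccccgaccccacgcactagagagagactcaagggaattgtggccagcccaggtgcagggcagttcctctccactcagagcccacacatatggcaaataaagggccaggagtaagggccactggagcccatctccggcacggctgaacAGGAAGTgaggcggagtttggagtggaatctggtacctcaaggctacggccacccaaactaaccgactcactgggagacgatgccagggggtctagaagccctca
No exact match to the octamer ATGCAAAT (in 1.74% of the promoters) was found in this window on either strand. The same held for the EBF1 motif CCCNNGGG, alone (13.7%) or with T before and A after it (0.904%). Sites that differ from these letters were not sought, so the search does not tell whether EBF1 or octamer sites are absent. In GENCODE coordinates on GRCm38, Cd79a spans chr7:24897381-24902197 on the plus strand and Cd79b chr11:106311341-106314762 on the minus strand, and both are protein-coding. Ms4a1 is protein-coding at chr19:11249675-11266241 on the minus strand and overlaps 4930526L06Rik on the plus strand. The constant-region genes are Ighm, at chr12:113418558-113422730 on the minus strand, and Igkc, at chr6:70726435-70726966 on the plus strand. Igkc overlaps the gene model Gm30211 on the same strand, and since no source used here gives the use of strand in counting, reads of Igkc or Ms4a1 cannot be told apart from those of the overlapping gene.

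The libraries held 10938600 to 20722295 estimated reads and are compared as normalised counts, meaning estimated reads per library brought to one common library size. In this unit 1 read was worth 0.707 to 1.41, and a gene with 0 reads could hold up to 3 reads, or 2.12 to 4.22. Heart muscle genes were abundant in every library, with Myh6, the alpha myosin heavy chain, between 314263 and 428147 normalised counts. Siglec1 stood at 33.8, 2.12 and 0.719 normalised counts in the Macrophage-depleted libraries, against 53.4 to 64.3 in WT, so depleted heart 1 kept more of it than the other 2. Nr1h3 was at 25.9 to 29.0 in LXR-DKO and 154.6 to 172.9 in WT, and Nr1h2 at 85.2 to 99.6 in LXR-DKO and 525.0 to 543.3 in WT. Mertk stood at 75.7 and 89.4 in the libraries labelled Mertk-KO, against 129.9 to 147 in WT. Part of the transcript was therefore still counted, and the Macrophage-depleted libraries reached equally low values (75.4 to 125), so Mertk does not single out its group. Some libraries stood apart. Mertk-KO 2 was far above all others in MHC class II transcripts (Cd74 6135 normalised counts, against 718 to 1743 in the other libraries), Macrophage-depleted 3 was lowest and LXR-DKO 2 highest in several members, and calls and member values that turn on 1 library are given without it too.

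The B cell transcripts were present at a low level in every heart. Ighm was the most abundant of the 5 and the only one above the lowest part of the tested range, with a mean of 124.1 normalised counts over the 11 libraries at the 36.7th percentile of the 13884 genes tested. Igkc averaged 23.5, at the 10.5th percentile. Cd79b (14.5), Cd79a (12.3) and Ms4a1 (11.9) lay at the 4.72, 2.71 and 2.22 percentiles, just above the minimum mean of 10 required for testing. Per kilobase of median transcript length, WT hearts held 88.2 ± 15.5 normalised counts of Ighm, 32.0 ± 9.05 of Igkc, 10.6 ± 1.41 of Cd79b, 9.30 ± 1.75 of Cd79a and 4.88 ± 1.08 of Ms4a1 (SD, n = 3). In that order Cd79b and Cd79a did not differ beyond their spread, whereas the ranges of one SD around the other neighbours did not meet. Cd79a, Cd79b and Ms4a1 each rested on 5 to 22 estimated reads a library, Igkc on 12 to 65 and Ighm on 41 to 200. Counting alone gives a coefficient of variation of 27.7% for Cd79a, 27.4% for Cd79b and 26.7% for Ms4a1 in WT, where the measured ones were 18.8%, 13.3% and 22.1%. In Macrophage-depleted hearts Ighm varied by 57.8% where counting gives 12.7%. The reads were amplified without molecular identifiers, so the counting values are lower limits.

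**Figure D1:**
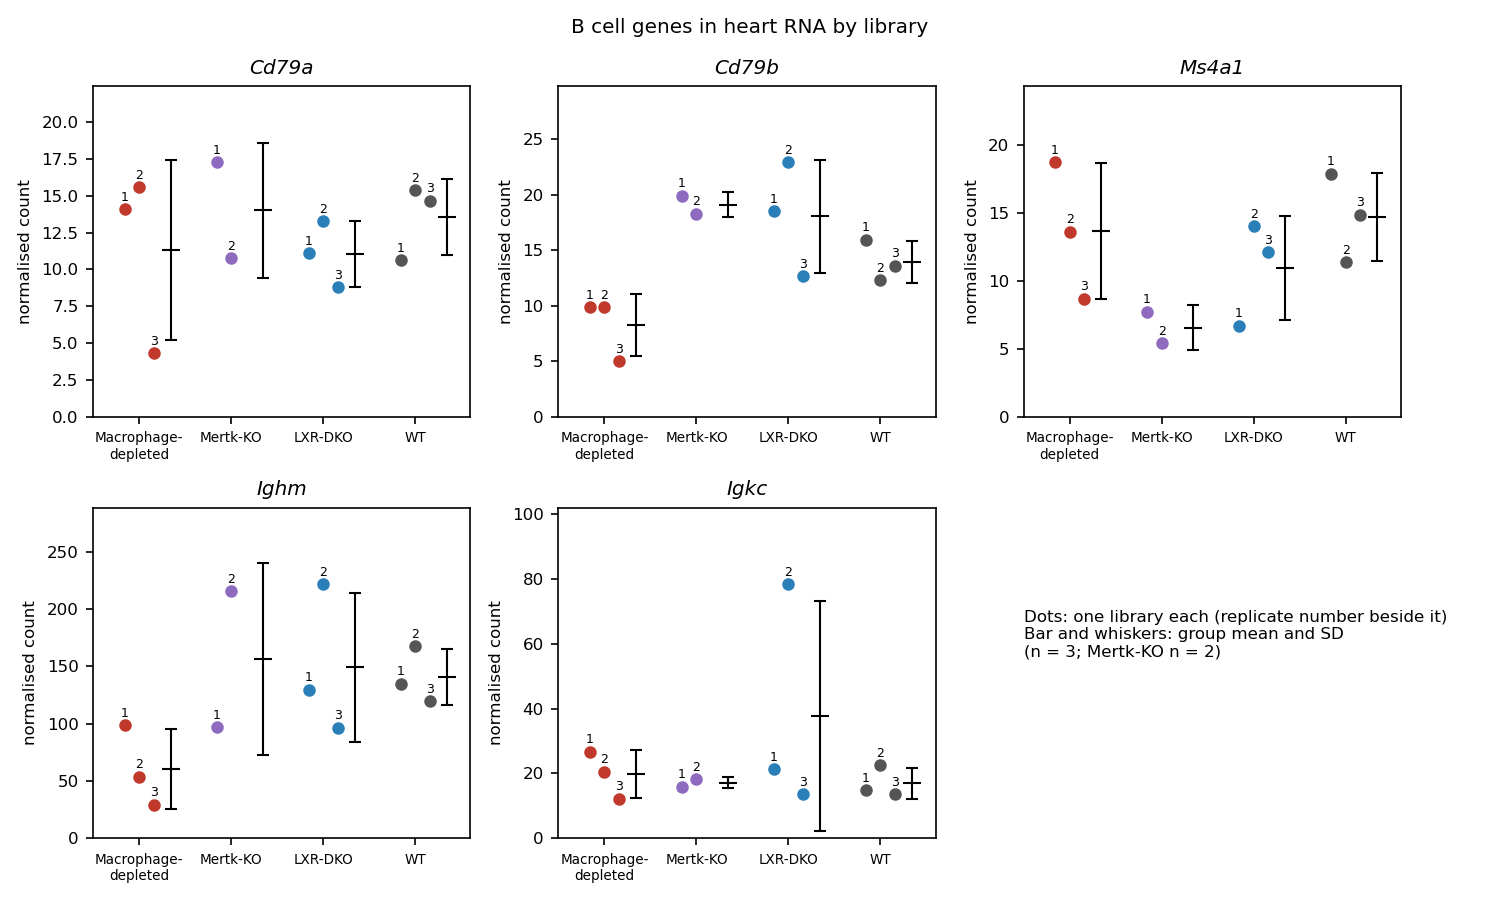
Normalised counts of Cd79a, Cd79b, Ms4a1, Ighm and Igkc (linear axes from 0) in each heart library, by group; dots are libraries with their replicate number, and the bar with whiskers is the group mean with its SD (n = 3, Mertk-KO n = 2). Every Macrophage-depleted library lies below every WT library for Ighm and Cd79b, both Mertk-KO libraries lie below WT for Ms4a1, and LXR-DKO 2 stands alone for Igkc at 78.4.

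No member passed the threshold of an adjusted p of 0.05 (limma, Benjamini-Hochberg over all genes tested) in any of the 6 comparisons between groups. The share of all tested genes that did was 0.238% in Macrophage-depleted against WT, 9.27% in Mertk-KO against WT and 0.418% in LXR-DKO against WT. It was 21.0% in Macrophage-depleted against Mertk-KO, 3.24% in Macrophage-depleted against LXR-DKO and 2.46% in Mertk-KO against LXR-DKO. At an unadjusted p under 0.05, 1 member passed in Macrophage-depleted against WT (7.53% of all genes), 1 in Mertk-KO against WT (28.6%), and 0 in LXR-DKO against WT (11.5%). The same count was 2 in Macrophage-depleted against Mertk-KO (36.2%), 2 in Macrophage-depleted against LXR-DKO (20.5%) and 0 in Mertk-KO against LXR-DKO (20.9%). Nothing in the labels ties each library to its own mouse, so these p-values measure the spread between libraries, which may be technical in part.

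The comparison of Macrophage-depleted with WT hearts sets toxin in CD169-DTR mice against toxin alone. The heavy-chain transcript Ighm was the member that differed most. It stood at 98.5, 53.7 and 29.5 normalised counts in Macrophage-depleted hearts and at 135, 168 and 119 in WT hearts. All 3 depleted hearts lay below all 3 WT hearts. Among depleted hearts, heart 1 was highest in Ighm and also in Ms4a1 (18.7) and Igkc (26.7). Heart 2 was highest in Cd79a (15.6) and Cd79b (9.90). A relation of Ighm to the Siglec1 left in each depleted heart was not tested. The Macrophage-depleted mean was 43.0% of the WT mean (60.6 ± 35.0 and 141 ± 24.7, SD, n = 3 each). The log2 fold change was -1.35 (SE 0.42, 95% interval -2.27 to -0.44), with an adjusted p of 0.369 in limma. Over 22 alternatives the adjusted p ranged between 0.0310 and 0.859, and the threshold was passed in 1 of them, with weights per library (log2 fold change -1.58). Without Macrophage-depleted 3 the log2 fold change was -0.93, and without Macrophage-depleted 1 it was -1.78.

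Cd79b, the Ig-beta signalling chain, was likewise lower in every depleted heart. It read 9.85, 9.90 and 5.04 normalised counts in Macrophage-depleted and 15.9, 12.3 and 13.6 in WT hearts. The log2 fold change was -0.74 (SE 0.35, 95% interval -1.50 to 0.03, adjusted p = 0.681 in limma). Without Macrophage-depleted 3 it was -0.45. Among all genes tested, 8.15% were lower and 8.51% higher without overlap between these groups, so 2 of 5 members is a description and no test.

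The other 3 members did not separate the groups. Cd79a, the partner chain of Cd79b, stood at 14.1, 15.6 and 4.32 normalised counts in Macrophage-depleted and at 10.6, 15.4 and 14.7 in WT hearts. Depleted hearts 1 and 2 lay inside or just above the WT range and depleted heart 3 far under it (log2 fold change -0.39, SE 0.45, 95% interval -1.37 to 0.59; 0.13 without Macrophage-depleted 3). Ms4a1, which encodes CD20, read 18.7, 13.6 and 8.68 in Macrophage-depleted and 17.9, 11.4 and 14.9 in WT (log2 fold change -0.14, SE 0.40, 95% interval -1.02 to 0.74). The kappa light chain Igkc read 26.7, 20.5 and 12.2 in Macrophage-depleted and 14.9, 22.5 and 13.6 in WT (log2 fold change 0.18, SE 0.53, 95% interval -0.97 to 1.32). The intervals of Cd79a, Ms4a1 and Igkc each reach past a 2-fold difference on at least one side, so a change of that size is not excluded for them. The median log2 fold change of the 5 members was -0.39, beside 0.00 over all genes tested.

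**Figure D2:**
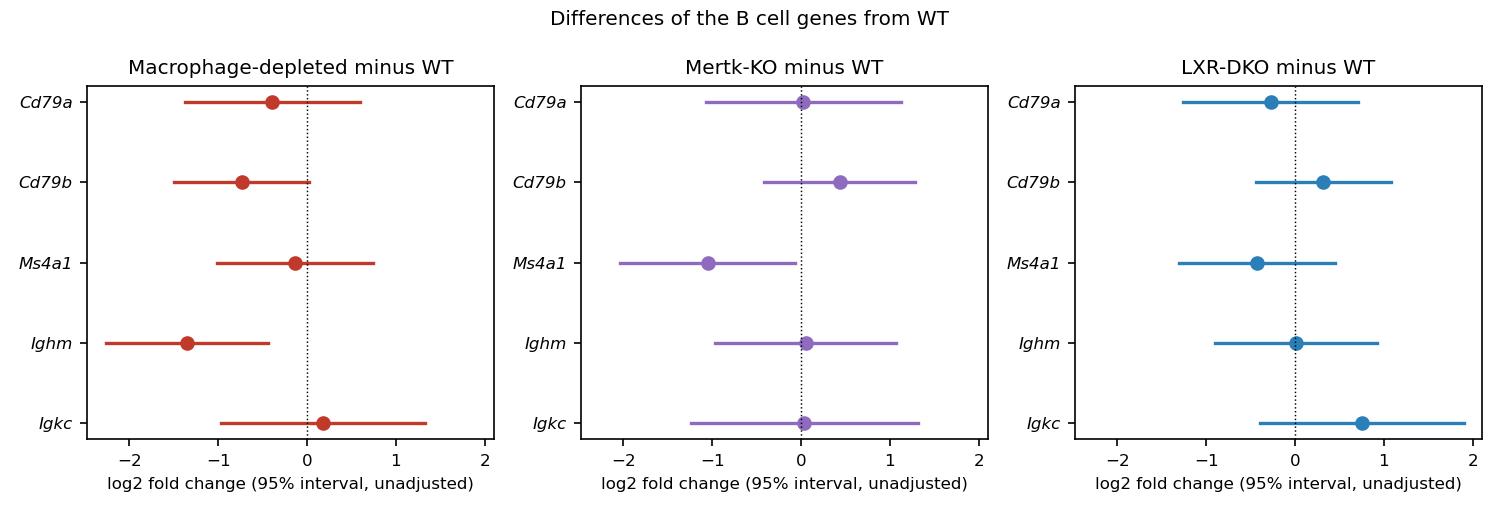
Log2 fold change of each B cell gene (horizontal axis; dot, with its unadjusted 95% interval as a line) in Macrophage-depleted, Mertk-KO and LXR-DKO hearts minus WT, on log2(normalised count + 1). The interval lies wholly below 0 for Ighm in Macrophage-depleted (-2.27 to -0.44) and for Ms4a1 in Mertk-KO (-2.03 to -0.07), and crosses 0 for the others.

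Because the members did not move alike, their ratios within each library were examined; they were chosen after the values were seen and are given with no test. A ratio within a library does not depend on how the library was scaled. Kappa light chain per mu heavy chain (Igkc to Ighm) was 0.271, 0.382 and 0.415 in Macrophage-depleted hearts and 0.110, 0.134 and 0.114 in WT hearts. The depleted hearts did not overlap WT, and the same held in the deposited TPM table (0.982 to 1.66 in Macrophage-depleted, 0.377 to 0.548 in WT). Ighm itself was lower in every depleted heart while Igkc overlapped WT, so the higher ratio in part restates the Ighm values. How often ratios of other genes separate these groups was not examined. In Mertk-KO the ratio was 0.164 and 0.0850, and in LXR-DKO 0.164, 0.353 and 0.141, where the high value is that of LXR-DKO 2.

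Ighd, the delta constant region made from the same primary transcript as Ighm in mature naive B cells, was compared with Ighm in the same way. Ighd per Ighm was 0.343, 0.421 and 0.610 in Macrophage-depleted hearts, against 0.150, 0.213 and 0.246 in WT hearts. Those were the 3 highest values of the 11 libraries, while in the TPM table the groups met (0.301 to 0.8004 in Macrophage-depleted, 0.124 to 0.354 in WT). Igkc to Ighm and Ighd to Ighm share their denominator, so they are not separate observations. Mertk-KO hearts had the lowest ratios, 0.0685 and 0.0950, and LXR-DKO hearts had 0.157, 0.141 and 0.101. Ighd itself read 33.8, 22.6 and 18.0 normalised counts in Macrophage-depleted and 20.2, 35.8 and 29.3 in WT (log2 fold change -0.20, SE 0.47, limma adjusted p = 0.993). CD20 per Ig-beta (Ms4a1 to Cd79b) was 1.90, 1.37 and 1.72 in Macrophage-depleted hearts, 0.388 and 0.295 in Mertk-KO hearts, 0.362, 0.611 and 0.954 in LXR-DKO hearts, and 1.12, 0.925 and 1.09 in WT hearts. The depleted and Mertk-KO hearts thus lay on opposite sides of WT, although in the TPM table depleted and WT hearts overlapped (0.378 to 0.599 and 0.310 to 0.582). Cd79b itself was lower than WT in every depleted heart and higher in both Mertk-KO hearts, so this ratio in part restates it. Other ratios were also computed. Igkc to Cd79a overlapped between depleted and WT hearts (1.318 to 2.833 and 0.9286 to 1.467). So did Cd79a to Cd79b (0.8571 to 1.571 and 0.6667 to 1.25), although not in the TPM table. Ighm to Cd79a was lower in depleted than in WT hearts without overlap (3.455 to 7 and 8.143 to 12.7), in the TPM table as well. It too in part restates the Ighm values.

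**Figure D3:**
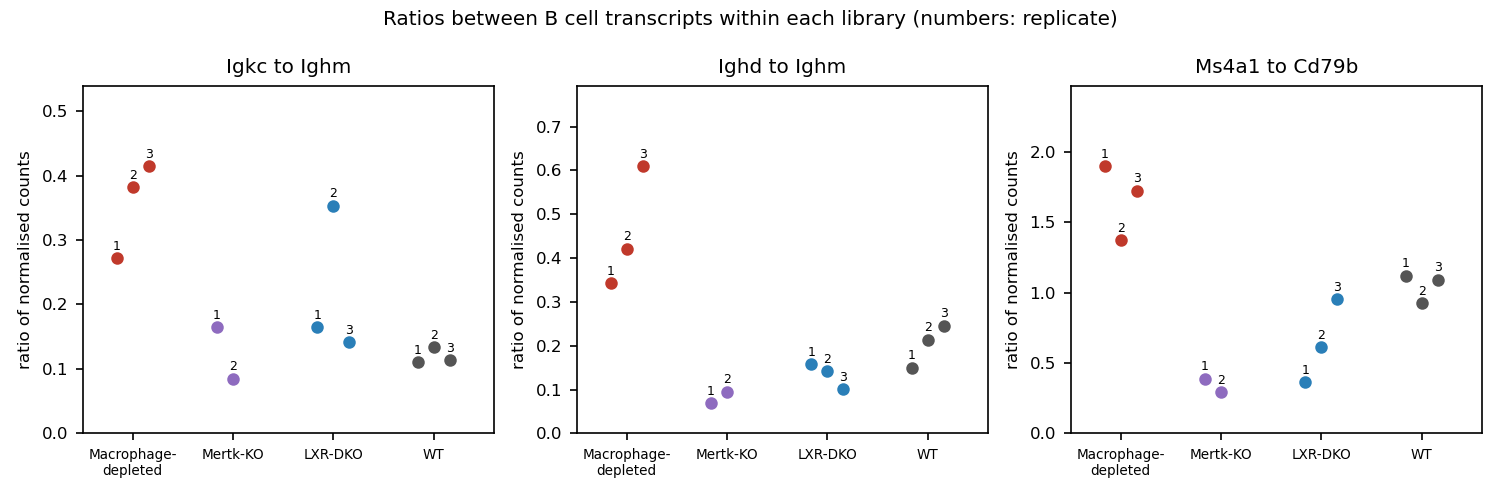
Ratios of normalised counts within each library for Igkc to Ighm, Ighd to Ighm and Ms4a1 to Cd79b (linear axes from 0), with the replicate number beside each dot and no mean drawn. Ratios with Cd79a were also computed but are not drawn, and not all of them separated depleted from WT hearts. Macrophage-depleted libraries lie above WT in all 3 panels, at 0.271 to 0.415 against 0.110 to 0.134 for Igkc to Ighm, and both Mertk-KO libraries lie below WT for Ms4a1 to Cd79b, at 0.388 and 0.295.

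In Mertk-KO hearts the member that stood out was Ms4a1. CD20 transcript was at 7.73 and 5.40 normalised counts in Mertk-KO hearts, against 17.9, 11.4 and 14.9 in WT hearts. Both Mertk-KO values lay below every WT value, at 44.6% of the WT mean (log2 fold change -1.05, SE 0.45, 95% interval -2.03 to -0.07, adjusted p = 0.149 in limma). The values rest on 5.82 and 5.01 estimated reads in the Mertk-KO libraries, and the fold change was -0.65 when a trend with transcript length and GC content was removed from each library. Cd79b went the other way, with 19.9 and 18.3 normalised counts in Mertk-KO against 15.9, 12.3 and 13.6 in WT (log2 fold change 0.43, SE 0.39, limma adjusted p = 0.498). Of all genes tested, 21.1% were lower and 21.4% higher in Mertk-KO without overlap, and 1 of the 5 members was found in each direction.

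The remaining members overlapped WT. Cd79a read 17.3 and 10.8 normalised counts in Mertk-KO and 10.6 to 15.4 in WT (log2 fold change 0.03, SE 0.50). Ighm read 96.9 and 216 in Mertk-KO, below and above the WT range of 119 to 168 (log2 fold change 0.05, SE 0.47). Igkc read 15.9 and 18.3, inside the WT range of 13.6 to 22.5 (log2 fold change 0.04, SE 0.59). With 2 libraries the intervals of these 3 are wide, from -1.07 to 1.13 for Cd79a, -0.97 to 1.07 for Ighm and -1.24 to 1.32 for Igkc. The median over the members was 0.04, beside -0.01 over all genes.

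In LXR-DKO hearts no member separated from WT, and Igkc stood out in 1 library. Igkc stood at 21.3, 78.4 and 13.7 normalised counts in LXR-DKO and at 14.9, 22.5 and 13.6 in WT. LXR-DKO 2 lay above every other library of the study, and the other 2 LXR-DKO hearts lay inside the WT range. The log2 fold change was 0.75 (SE 0.53, 95% interval -0.40 to 1.90, adjusted p = 0.613 in limma) and 0.04 without LXR-DKO 2. Ighm read 129.7, 222 and 96.7 in LXR-DKO, again highest in LXR-DKO 2 (log2 fold change 0.01, SE 0.42; -0.31 without it). Cd79b read 18.5, 22.9 and 12.7 (log2 fold change 0.32, 95% interval -0.44 to 1.08), with LXR-DKO 1 and 2 above the WT range. Cd79a read 11.1, 13.3 and 8.79 (-0.27, 95% interval -1.26 to 0.71), and LXR-DKO 3 lay below the WT range for it and for Ighm. Ms4a1 read 6.71, 14.0 and 12.1 (-0.43, 95% interval -1.31 to 0.45), with LXR-DKO 1 below the WT range. Each of these overlapped WT, where 10.7% of all genes were lower and 12.0% higher without overlap. The median over the members was 0.01, beside 0.00 over all genes.

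Set against the other perturbed groups, Macrophage-depleted hearts differed most, among the members, in Ighm and Cd79b, whose means were lowest in depleted hearts. Against Mertk-KO, Cd79b was lower in every depleted heart (log2 fold change -1.17, SE 0.39, limma adjusted p = 0.052). Ighm was at 38.8% of the Mertk-KO mean (log2 fold change -1.41, SE 0.47, with adjusted p = 0.052), with Macrophage-depleted 1 (98.5) just above Mertk-KO 1 (96.9). Both sat at the edge of the threshold. Ighm passed it without Macrophage-depleted 1 (log2 fold change -1.83, adjusted p = 0.0214), without Mertk-KO 1 (-1.98, 0.0220) and without LXR-DKO 2 (adjusted p = 0.0466), and Cd79b without LXR-DKO 3 (adjusted p = 0.0479). With all libraries, Ighm also passed with a minimum mean of 30 (0.0496), median-of-ratios scaling (0.0488) and voom weights (0.0315), and Cd79b with median-of-ratios scaling (0.0497) and voom weights (0.0395). Without Mertk-KO 2 the log2 fold change of Ighm was -0.83 (adjusted p = 0.276). Over the alternatives the adjusted p spanned 0.0214 to 0.276 for Ighm and 0.0395 to 0.222 for Cd79b. Ms4a1 was higher in every depleted heart than in Mertk-KO (log2 fold change 0.91, SE 0.45, limma adjusted p = 0.167). Of all genes, 22.6% were lower and 22.9% higher with no overlap here.

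Against LXR-DKO, Macrophage-depleted hearts had a log2 fold change of -1.37 for Ighm (SE 0.42, limma adjusted p = 0.0956) and -1.05 for Cd79b (SE 0.35, with adjusted p = 0.115), with no overlap for Cd79b, where 14.6% of all genes were lower and 13.7% higher without overlap. With weights per library both passed the threshold (log2 fold change -1.55, adjusted p = 0.00987 for Ighm and -1.24, 0.0222 for Cd79b). Ighm also passed it when Macrophage-depleted 1 (-1.79, 0.0458), Mertk-KO 1 (0.0415) or Mertk-KO 2 (0.0422) was left out. Over the alternatives the adjusted p spanned 0.00987 to 0.343 for Ighm and 0.0222 to 0.365 for Cd79b. These comparisons share the depleted libraries with the comparison against WT, so they are not separate evidence. Between Mertk-KO and LXR-DKO no member stood apart without overlap (16.4% of all genes were lower and 15.1% higher), and the log2 fold changes ran from -0.71 for Igkc (SE 0.59) to 0.30 for Cd79a (SE 0.50).

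The other heavy-chain classes were nearly silent apart from Ighd and Ighg2c. Ighg2c, a class made after switching, read 46.5, 48.8 and 22.9 normalised counts in Macrophage-depleted hearts, 26.6 and 21.6 in Mertk-KO hearts, 8.24, 6.03 and 25.2 in LXR-DKO hearts, and 11.7, 25.6 and 7.34 in WT hearts. Depleted hearts 1 and 2 were the highest of the study and depleted heart 3 lay inside the WT range (log2 fold change against WT 1.44, SE 0.53, limma adjusted p = 0.506). Reads of Ighg2c and Ighg2b may be split between near-identical copies, so these values are uncertain. Ighg3 and Ighe had 0 reads in all 11 libraries, and Ighg1 had 2 in all. Igha, the class of mucosal antibody, reached 8.45 normalised counts in LXR-DKO 2 and 8.19 in WT 2. Of the 10 other constant-region genes listed, 2 were tested and 0 passed in any comparison.

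The 218 variable segments of the antibody loci in the table, which code for the antigen-binding part, were summed. They gave 15, 31 and 30 estimated reads in Macrophage-depleted, 16 and 19.99 in Mertk-KO, 25, 47 and 15 in LXR-DKO, and 36, 16 and 20 in WT libraries. Scaled to normalised counts, the sums were 21.1, 21.9 and 21.6 in Macrophage-depleted and 21.2 and 21.5 in Mertk-KO. They were 23.2, 56.7 and 14.6 in LXR-DKO and 38.3, 16.4 and 21.0 in WT. LXR-DKO 2 was again highest. Of its 47 reads, 12 came from a single segment, Ighv2-9, which had 0 reads in the 10 other libraries. Outside it, the highest segment of any library was Iglv1 in WT 1, with 5 reads. Jchain, the chain that joins secreted IgM and IgA, was also highest in LXR-DKO 2 (11.8 normalised counts, against 0.770 to 4.22 in the others). Adipocyte transcripts were highest in that same library, with 98.95 for Cfd, 38.6 for Adipoq and 144 for Car3, against at most 58.4, 25.9 and 77.8 in the others. Their part in the Igkc value was not tested.

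Genes of early B cell development were low, and Rag1 and Dntt had more than 2 reads in LXR-DKO 1 alone. Rag1, which cuts antigen-receptor genes for recombination, gave 13 reads in LXR-DKO 1, 2 in WT 1, 1 in WT 3 and 0 in the other 8. Dntt, which adds bases at the cut ends, gave 5 reads in LXR-DKO 1 and 0 in the other 10, while Rag2, the partner of Rag1, gave 6.98 reads in LXR-DKO 1 and 7 in Macrophage-depleted 3 (6.47 and 5.04 normalised counts). In LXR-DKO 1 Igkc and Ighm lay inside the WT range, at 21.3 and 129.7 normalised counts. Both enzymes also act in immature T cells, so the signal is not particular to B cells. Among the 9 plasma cell genes, 4 were tested and 0 passed in comparisons with WT. Irf4 stood at 13.2 ± 7.47 normalised counts in Macrophage-depleted and 18.1 ± 2.07 in WT hearts (SD, n = 3 each). Xbp1, a regulator of secretion active in many cells, stood at 757 ± 82.2 in Mertk-KO (n = 2) and 584 ± 4.18 in WT (n = 3), with a log2 fold change of 0.37 (SE 0.12, limma adjusted p = 0.0725; leaving out Mertk-KO 2 gave 0.26, and Mertk-KO 1 gave 0.48 with adjusted p = 0.0476). It was lower in Macrophage-depleted than in Mertk-KO hearts (527 ± 73.7 and 757 ± 82.2; log2 fold change -0.53, limma adjusted p = 0.0135), and without Mertk-KO 2 that adjusted p was 0.0502.

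Other genes of the B cell receptor pathway were read beside the members. Of 15 surface receptors, 6 were tested, and 1 of them passed in a comparison with WT, in Mertk-KO, where 9.27% of all genes did. Cd72, an inhibitory co-receptor of B cells that some myeloid cells also carry, rose in Mertk-KO hearts to 100.4 and 172.5 normalised counts, against 37.5, 63.5 and 42.4 in WT hearts. Both Mertk-KO values lay above every WT value (log2 fold change 1.48, SE 0.36, limma adjusted p = 0.0308, 0.0177 to 0.163 over the alternatives). The call held in 13 of 22 alternatives and was lost without Mertk-KO 2 (log2 fold change 1.09, adjusted p = 0.0928), without WT 1 (0.0882), without WT 2 (0.0565) and without WT 3 (0.0898). It was also lost in the TPM table (1.07, 0.0912). In the same hearts Ms4a1 read 7.73 and 5.40 in Mertk-KO and 11.4 to 17.9 in WT. MHC class II transcripts were mostly higher there without passing the test (7 of 8 tested), with Cd74 at 1743 and 6135 in Mertk-KO and 1249 to 1447 in WT. Macrophage transcripts were mixed. Fold changes were positive for 9 and negative for 1 of the pan-macrophage genes, and positive for 6 and negative for 3 tested resident macrophage genes, with 0 calls. Lyz2 stood at 2202 ± 554 in Mertk-KO (n = 2) and 1505 ± 168 in WT (n = 3). Its log2 fold change was 0.53 (limma adjusted p = 0.0980), 0.79 without Mertk-KO 1 and 0.27 without Mertk-KO 2. The part of these transcripts in the Cd72 result was not tested.

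In Macrophage-depleted hearts 0 of the 6 tested surface receptors, 0 of the 13 signalling genes and 0 of the 6 tested transcription factors passed against WT. Bank1, a scaffold of B cell receptor signalling, read 8.45, 8.48 and 7.91 normalised counts in Macrophage-depleted hearts and 18.1, 22.5 and 26.2 in WT hearts. The groups did not overlap. The depleted values rest on 6, 12 and 11 estimated reads, so little can be read from their near equality. The adjusted p was 0.142 in limma (log2 fold change -1.31, SE 0.29) and fell under 0.05 in 1 of 21 alternatives, with weights per library (0.0222). In the TPM table the log2 fold change was -0.92 (limma adjusted p = 0.352). Of the 13 signalling genes, 2 were lower and 2 higher in depleted hearts without overlap, beside 8.15% and 8.51% of all genes. Cd37, a tetraspanin of B cells and other leukocytes, read 20.5, 6.73 and 10.6 in Macrophage-depleted and 37.2, 28.7 and 36.7 in WT (log2 fold change -1.49, SE 0.38, with adjusted p = 0.212; -0.43 in the TPM table). Pou2f2, the factor Oct-2, averaged 16.8 ± 5.48 in Macrophage-depleted and 34.3 ± 9.61 in WT hearts (log2 fold change -0.997, SE 0.38, with adjusted p = 0.532).

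Cd22 and Pax5 did not share that direction. Cd22, an inhibitory lectin of B cells, read 26.0, 15.9 and 6.92 normalised counts in Macrophage-depleted hearts and 3.62, 15.4 and 17.9 in WT hearts. Pax5, the factor that fixes B cell identity, read 21.1, 9.90 and 11.5 in Macrophage-depleted hearts, 0 and 3.23 in Mertk-KO hearts, 4.63, 1.21 and 1.95 in LXR-DKO hearts, and 6.38, 8.19 and 6.29 in WT hearts. For Pax5 every depleted heart was above every WT heart, but Spib, of the same list, went the other way. Spib read 4.22, 3.54 and 0.799 in Macrophage-depleted hearts and 5.32, 8.19 and 10.5 in WT hearts. Both genes were under the minimum mean and were not tested. Of all genes tested, 8.51% were higher and 8.15% lower in depleted hearts without overlap. The median log2 fold change in Macrophage-depleted against WT was -0.19 for the tested surface receptors, -0.19 for the signalling genes and -0.26 for the transcription factors, beside 0.00 for all genes.

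**Figure D4:**
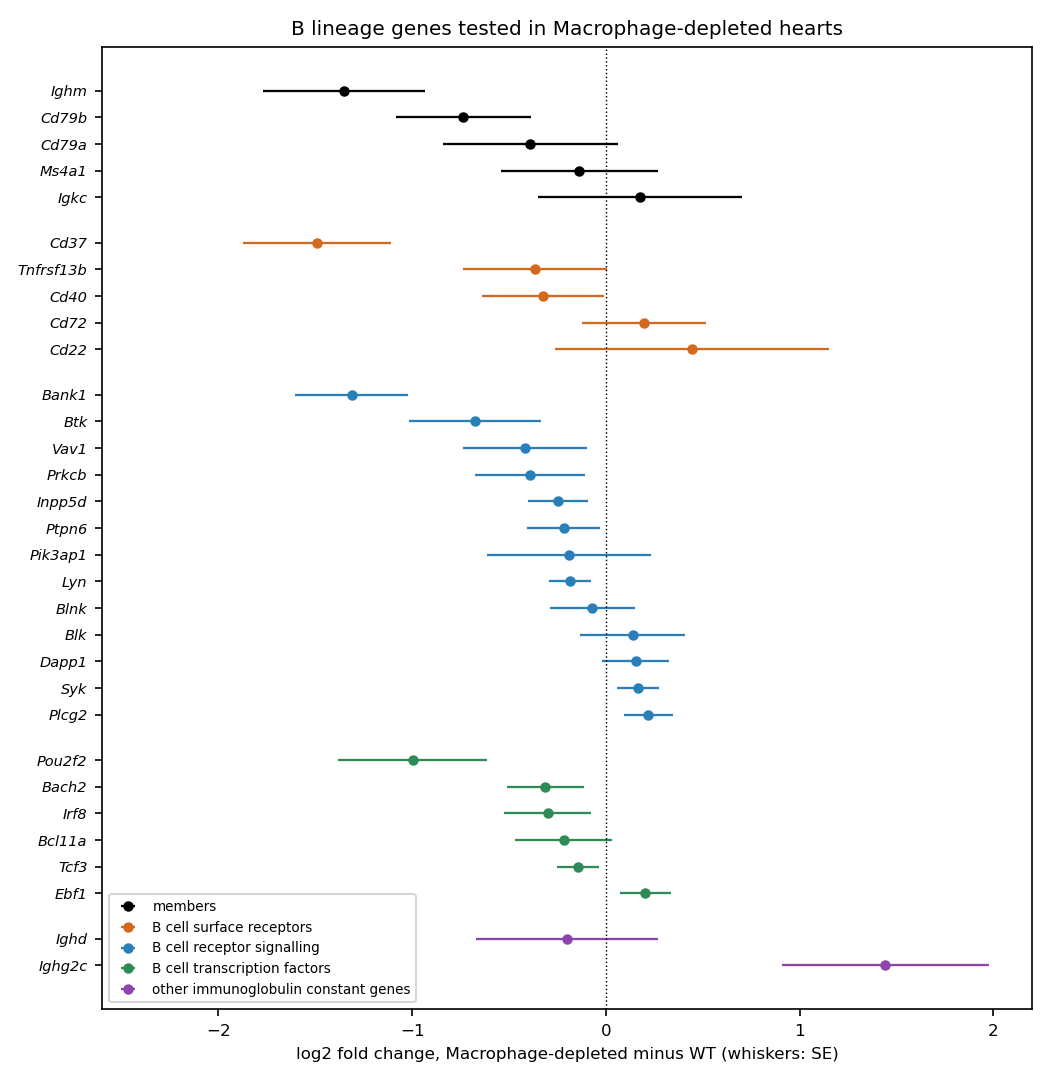
Log2 fold change in Macrophage-depleted minus WT hearts (horizontal axis; dot, with its SE as whiskers) of the members and of tested genes of 4 other B lineage lists, sorted within each list and coloured by list. Cd37 (-1.49), Ighm (-1.35) and Bank1 (-1.31) lie lowest and Ighg2c (1.44) highest, and none of them passed the threshold.

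In Mertk-KO and LXR-DKO hearts the signalling and transcription-factor lists gave 0 calls against WT as well. In Mertk-KO the smallest p of these lists was that of Irf8, a factor of B and myeloid cells, at 147 ± 68.8 normalised counts in Mertk-KO (n = 2) and 83.5 ± 5.34 in WT (n = 3; log2 fold change 0.73, SE 0.25, limma adjusted p = 0.0818; leaving out Mertk-KO 2 gave 0.23, and Mertk-KO 1 gave 1.22 with adjusted p = 0.00661). Blk, a B cell kinase, averaged 18.8 ± 5.29 in Mertk-KO and 30.7 ± 5.21 in WT (log2 fold change -0.69, SE 0.30, with adjusted p = 0.157). In LXR-DKO Cd37 averaged 17.4 ± 6.20, against 34.2 ± 4.79 in WT (SD, n = 3 each; log2 fold change -0.99, SE 0.38, with adjusted p = 0.375). Between Macrophage-depleted and Mertk-KO hearts, where 21.0% of all genes passed, 5 genes of these lists were lower in Macrophage-depleted hearts: Cd72 (log2 fold change -1.28), Cd37 (-1.52), Bank1 (-1.11), the phosphatase gene Ptpn6 (-0.71) and Irf8 (-1.03), with limma adjusted p between 0.0167 and 0.0337. Without Mertk-KO 2 none of the 5 passed: the log2 fold changes were -0.90 for Cd72, -1.44 for Cd37, -0.87 for Bank1, -0.31 for Ptpn6 and -0.53 for Irf8, with limma adjusted p between 0.0777 and 0.272. Among the other libraries compared, Cd72 also failed without Macrophage-depleted 1 or 3, Cd37 without Macrophage-depleted 2 or 3 or Mertk-KO 1, Ptpn6 without any 1 depleted library, and Bank1 without any 1 depleted library or WT 2 (adjusted p between 0.0505 and 0.0882). Dapp1, an adaptor of the pathway, was higher (0.62, adjusted p = 0.0395), and failed without Macrophage-depleted 2 or 3, any 1 WT library, or Mertk-KO 1, where the log2 fold change was 0.33 (adjusted p from 0.0539 to 0.267). Between Mertk-KO and LXR-DKO, and between Macrophage-depleted and LXR-DKO, 0 genes of these lists passed.

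Signals that draw or sustain B cells were measured as well. Of 10 listed genes, 6 were tested and 0 passed against WT in any group. Ccl21a, a chemokine that guides lymphocytes, averaged 293 ± 85.3 normalised counts in Macrophage-depleted and 201 ± 40.5 in WT hearts (SD, n = 3 each; log2 fold change 0.53, SE 0.19, limma adjusted p = 0.480). Tnfsf13, the survival factor APRIL, averaged 6.01 ± 3.11 in Mertk-KO (n = 2) and 17.0 ± 6.68 in WT (n = 3; log2 fold change -1.36, SE 0.49, with adjusted p = 0.0937; leaving out Mertk-KO 2 gave -1.83 with 0.0490, and Mertk-KO 1 gave -0.89 with 0.345). It was higher in Macrophage-depleted than in Mertk-KO hearts (22.4 ± 3.17 and 6.01 ± 3.11; log2 fold change 1.81, adjusted p = 0.0251), but not without any 1 depleted library or without Mertk-KO 1 (adjusted p between 0.0559 and 0.123). Cxcl13, the chemokine of B cell follicles, was at 3.91 normalised counts in LXR-DKO 3 and at 1.41 or less in the other 10 libraries.

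Markers of other cells moved beside the members in Macrophage-depleted hearts. Of 9 tested genes of resident macrophages, 9 had a negative fold change against WT and 2, Timd4 and Cd163, passed. Their summed level over 10 genes was 319 to 1463 normalised counts in Macrophage-depleted and 1957 to 2163 in WT hearts, and Vsig4 was at 0 in every depleted heart. The sum of 10 pan-macrophage genes was 1343 to 2657 in Macrophage-depleted and 3537 to 4229 in WT, with 0 calls. Of 6 tested adipocyte genes, 5 were negative, 4 were lower without overlap (8.15% of all genes) and 0 passed. Cfd, a secreted protease of fat cells, stood at 5.18 ± 3.15 in Macrophage-depleted and 38.1 ± 17.6 in WT hearts (log2 fold change -2.71). The others were Adipoq (-1.90), Car3 (-1.83), Cidec (-1.63) and Plin1 (-1.57). Fabp4 did not fall, at 6128 ± 713 in Macrophage-depleted and 5769 ± 365 in WT. It made up most of the sum of the 8 listed genes, which was 5673 to 6969 in Macrophage-depleted and 5540 to 6333 in WT. The sum of 6 erythrocyte genes, a sign of blood left in the tissue, was 3304 to 4862 in Macrophage-depleted and 4996 to 8512 in WT, with 0 calls. The haemoglobin gene Hba-a2 stood at 1747 ± 371 in Macrophage-depleted and 2891 ± 679 in WT hearts (log2 fold change -0.72, SE 0.23, limma adjusted p = 0.390). The part of macrophages, fat and blood in the Ighm and Cd79b values was not tested.

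For other lymphocytes and leukocytes the summed levels of depleted and WT hearts overlapped. The sum of 14 T cell markers was 174 to 195 normalised counts in Macrophage-depleted and 180 to 194 in WT hearts. Of these markers 3 were tested, and the sum rests largely on Thy1 (91.8 ± 5.42 in Macrophage-depleted and 102 ± 0.915 in WT). For 7 pan-leukocyte genes the sum was 839 to 852 in Macrophage-depleted and 778 to 953 in WT. NK cell markers summed to 23.5 to 34.2 in Macrophage-depleted and 18.2 to 37.8 in WT, with 0 of 8 tested. Neutrophil markers summed to 67.7 to 144 in Macrophage-depleted and 90.7 to 98.8 in WT. In these lists 0 tested genes passed against WT in any group, but single genes differed. Mmp9, a protease of neutrophils and other cells, read 8.45, 8.48 and 11.5 in Macrophage-depleted and 39.3, 26.6 and 16.8 in WT hearts (log2 fold change -1.38, SE 0.34, limma adjusted p = 0.199). Laptm5, a lysosomal protein of leukocytes, averaged 223 ± 23.5 in Macrophage-depleted and 287 ± 13.6 in WT hearts (SD, n = 3 each), with a log2 fold change of -0.37 and a limma adjusted p of 0.485. The neutrophil genes S100a8 and S100a9 had positive fold changes (0.71, SE 0.43, and 0.74, SE 0.49).

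Over the 11 libraries each pair of members was correlated. The permutations shuffled all 11 libraries without regard to group, so their p-values also take in differences between groups. Of 10 pairs, 1 passed after adjustment over the pairs: Cd79b and Ighm, with r = 0.841 (permutation p = 0.00173, adjusted 0.0173) and rho = 0.618 (permutation p = 0.0472, adjusted 0.445). The relation rested in part on Macrophage-depleted 3 and LXR-DKO 2, without which r was 0.532, and within groups r was 0.664. Cd79a and Cd79b, which form a pair in the receptor, gave r = 0.574 (permutation p = 0.0736, adjusted 0.309) and rho = 0.155 (permutation p = 0.653, adjusted 0.968), and r was -0.339 without Macrophage-depleted 3 and LXR-DKO 3, and 0.768 within groups. Within groups r was positive for all 10 pairs, between 0.366 and 0.781, as a description. Ighm and Igkc gave r = 0.507 (permutation p = 0.123, adjusted 0.309) and rho = 0.545 (permutation p = 0.0889, adjusted 0.445), with 0.781 within groups.

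The genes whose pattern was most like the members' mean profile were found by Pearson correlation over the 11 libraries, as a description. They were Trmt61a (0.964), Klc1 (0.890), N4bp3 (0.875), Arsi (0.867), Rmnd1 (0.854), Ruvbl1 (0.851), Tmem185b (0.845), Aqp1 (0.844), Ms4a7 (0.826) and Fyn (0.825). None is on the B cell lists. The profile itself was lowest in Macrophage-depleted 3 (-1.08 on the log2 scale around each gene's mean) and highest in LXR-DKO 2 (0.82), and all 10 genes were lowest in Macrophage-depleted 3. Trmt61a, a subunit of a tRNA methyltransferase, ran from 31.0 normalised counts there to 74.5 in LXR-DKO 2. Of the 10, 7 were highest in LXR-DKO 2; Klc1 was highest in Macrophage-depleted 1, Ms4a7 in Mertk-KO 2 and Fyn in WT 3. The points are few and share library and depth.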

How the data were processed

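Whole-heart RNA was sequenced as 11 libraries in 4 groups after poly(A) selection and amplification, per the labels' protocols. A value given for a heart is that of 1 library. Named in the submitters' processing notes are the tools cutadapt, CASAVA 1.8.2, kallisto 0.43.1 and RSEM 1.2.20, and the build GRCm38. No source used here gives their roles, the annotation release or the use of strand. A pair of tables of normalised signal was deposited. As its values show, the first gives reads relative to an effective size of each library, after adding 0.5 read to each gene; the second holds TPM rescaled between libraries. From the first, estimated reads were recovered and brought to a common size of 15388737 (normalised counts). They were not whole numbers throughout, so no count model was used.

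The 13884 genes whose mean reached 10 normalised counts were tested with limma 3.58.1 in R 4.3.3 on log2(normalised count + 1), in 1 model of the 4 groups with 7 residual degrees of freedom. Fold changes on that scale understate those of low genes. Tests were two-sided, with Benjamini-Hochberg adjustment at 0.05 in each of 6 comparisons, and the procedure was checked on simulated data. The 22 alternatives covered pseudocounts of 0.5 and 5, no minimum and one of 30, median-of-ratios scaling, the TPM table (pseudocount 0.1), weights per library, 2-group fits, a replicate block and leaving out each library; voom weights, the removal of a trend with length and GC, and leaving out libraries for single B lineage genes were added after seeing the data. Correlations used 100000 permutations.

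The members and gene lists were chosen with earlier results of these data known. Beside the members, the rule for naming genes took up to 3 tested genes with the smallest p per list and comparison with WT, B cell genes that passed, and the 10 most similar profiles. Cd22, Pax5, Spib, Igha, Ighg1, Ighg3, Ighe, Jchain, Rag1, Rag2, Dntt, Ighv2-9, Iglv1, Cxcl13, Vsig4, Cd74 and the adipocyte genes Adipoq and Car3, where outside that rule, were chosen after their values were seen. Promoter sequence is from RefSeq (GRCm38.p6), which matched 1 of the 5 members, and gene positions are from GENCODE. A gene of the B cell lists is counted in its list but not reported here. The limit for 0 reads is 3 reads and covers counting error only.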

Additional observations from a re-analysis of the deposited data

How the results depend on the processing

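Of 636 values of the members under the alternatives, 582 kept direction and side of the threshold, 39 reversed and 15 passed a threshold that the reported value did not, 11 for Ighm and 4 for Cd79b, each given with its comparison. Every reversal concerned a log2 fold change that was not called. With the replicate block, Mertk-KO against WT gave -0.17 for Cd79a, -0.22 for Ighm, -0.27 for Igkc and a median of -0.22 over the members, and Mertk-KO against LXR-DKO gave -0.057 for Cd79b and -0.23 for Ighm. The replicate numbers did not pair the libraries: deviations of same-numbered libraries correlated between -0.0937 and 0.107 over 15 pairs, and those of other pairs between -0.116 and 0.111. With the length and GC trend removed, Mertk-KO against WT gave -0.13 for Cd79a, -0.037 for Ighm and -0.095 for Igkc, and Mertk-KO against LXR-DKO -0.038 for Ighm. In the TPM table Igkc was at -0.10 in Mertk-KO against WT, Ighm at -0.041 in LXR-DKO against WT and Cd79a at 0.14 in Macrophage-depleted against LXR-DKO. Ighm in LXR-DKO against WT was at -0.030 with weights per library and -0.026 with voom weights, and Igkc in Macrophage-depleted against Mertk-KO at -0.020 with weights per library.

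Leaving out 1 library moved log2 fold changes across 0 as follows. In Macrophage-depleted against WT the ranges were -0.68 to 0.13 for Cd79a, -0.38 to 0.13 for Ms4a1 and -0.062 to 0.47 for Igkc. In Mertk-KO against WT they were -0.29 to 0.34 for Cd79a, -0.52 to 0.62 for Ighm, -0.10 to 0.25 for Igkc and -0.058 to 0.19 for the median. In LXR-DKO against WT the range was -0.31 to 0.28 for Ighm. In Macrophage-depleted against Mertk-KO they were -0.73 to 0.11 for Cd79a and -0.10 to 0.43 for Igkc. In Macrophage-depleted against LXR-DKO they were -0.41 to 0.41 for Cd79a, -1.08 to 0.14 for Igkc and -1.08 to 0.013 for the median (0.013 without LXR-DKO 2). In Mertk-KO against LXR-DKO they were -0.017 to 0.62 for Cd79a, -0.10 to 0.30 for Cd79b, -0.53 to 0.61 for Ighm and -0.40 to 0.30 for the median (-0.40 without Mertk-KO 2).

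Counts of all genes called varied widely. Macrophage-depleted against WT gave 33, with 3 to 84 without 1 library, 219 with weights per library, 66 in a fit of the 2 groups, 20 in the TPM table, 17 with no minimum and 21 with a minimum of 30. Mertk-KO against WT gave 1287, with 70 to 2399 without 1 library, 12 with weights, 1 in the 2 groups, 386 in TPM, 391 with the block, 597 with no minimum and 700 with the length and GC trend removed. LXR-DKO against WT gave 58, with 31 to 118, 593 with weights and 124 in the 2 groups. Macrophage-depleted against Mertk-KO gave 2911, with 1378 to 3237, 1618 in TPM, 438 with weights, 146 in the 2 groups and 1893 with the trend removed. Macrophage-depleted against LXR-DKO gave 450, with 135 to 1229, 278 with no minimum, 222 in TPM and 2043 with weights. Mertk-KO against LXR-DKO gave 341, with 72 to 2168, 150 with no minimum, 91 in TPM, 19 with weights, 20 in the 2 groups, 119 with the block and 162 with voom. The cause of these shifts was not tested. A minimum of 30 left only Ighm of the members, so it gave no median. Where a Mertk-KO library is left out, the remaining one is assumed to vary like the other groups. With 5 to 22 estimated reads a library for Cd79a, Cd79b and Ms4a1, depth limits what can be told of them.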
